A study of Mus musculus with 19 samples.

Results

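The miR-34 family was followed through mouse neocortex, cerebellum and 5 classes of neuron. Its members were taken by name, as every miRNA listed as miR-34a, miR-34b or miR-34c with any arm or star suffix, which gave 6 of the 528 names in the deposited table: miR-34a, miR-34a*, miR-34b-5p, miR-34b-3p, miR-34c and miR-34c*. All 6 passed the filter on low values, as did 522 names in all. miR-34a, miR-34b-5p and miR-34c are called the main arms below, since they held most reads of their hairpins, and the other members the minor arms. No library of ependyma, the ciliated lining of the ventricles, was analysed here, so the family is described in neurons and whole tissue only.

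The study sequenced small RNA of 19 to 24 nt that was bound to the Argonaute protein Ago2 in the adult mouse brain, at postnatal day 56. Whole neocortex and whole cerebellum were immunoprecipitated with anti-Ago2, with 3 libraries each and 1 tissue in a library. The neuron classes were immunoprecipitated with anti-Myc, which pulls down tagged Ago2 from the cells that carry it. Camk2a (excitatory neurons) had 3 libraries of 1 tissue, Gad2 (GABAergic neurons) 3 libraries of 4 pooled tissues, and PV and SST (parvalbumin and somatostatin interneurons) 2 libraries each of 4 pooled tissues, all from neocortex. Gad2, as a class of GABAergic neurons, may include PV and SST cells, so PV or SST against Gad2 may set a part against a whole. Purkinje cells, from cerebellum, had 3 libraries of 3 pooled tissues. Neocortex and Camk2a mice were C57BL/6 and BALB/c, Gad2, PV and SST mice C57BL/6 and 129, and Cerebellum and Purkinje mice C57BL/6 and black swiss. What drove the tagged Ago2 in each class was not given in the sources used here. Antibody, strain and pooling change together with several of the groups and cannot be told apart from cell class there. Camk2a and Neocortex share strain and pooling and differ in antibody, as do Purkinje and Cerebellum in antibody and pooling.

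A miRNA guides Argonaute to target mRNAs mainly through its seed, the bases near its 5′ end, so miRNAs with the same seed share many predicted targets. miR-34a comes from a gene of its own, while miR-34b and miR-34c are processed from a common primary transcript, and the tumour suppressor p53 is known to activate both genes. In the brain miR-34a is known as a neuronal miRNA, whereas miR-34b and miR-34c, with the related miR-449 miRNAs, are best known from cells with motile cilia, such as ependyma and choroid plexus.

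The mature sequences are shown because miR-34a and miR-34b-5p carry the same seed, while the genes of miR-34b and miR-34c lie close together. Those of 5 of the 6 members were matched in RefSeq (GRCm38.p6), and capitals mark bases 2 to 8, the seed, counted from the 5′ end. The main arm miR-34c had no match, so its seed was not read here and it is named only.
miR-34a: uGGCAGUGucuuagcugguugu
miR-34b-5p: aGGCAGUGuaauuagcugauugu
miR-34a*: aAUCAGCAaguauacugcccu
miR-34b-3p: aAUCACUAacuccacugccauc
miR-34c*: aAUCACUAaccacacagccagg
miR-34a and miR-34b-5p carry the same seed, which 4 of the 1738 mature mouse sequences in RefSeq hold. The main arm miR-34c is not among those sequences, so this count says nothing about its seed. miR-34b-5p is 1 base longer, and the sequences are identical at 11 of 22 bases when lined up at the 5′ end without a gap and at up to 19 of 22 when 1 gap of 1 base is allowed. The minor arms miR-34b-3p and miR-34c* share a second seed that no other of the 1738 sequences holds, and were identical at 17 of 22 bases without a gap. The seed of miR-34a* is held by that miRNA alone.

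In GRCm38.p6 the hairpin of miR-34a lies at chr4:150068454-150068555 on the plus strand, in an exon of Gm37795, a transcript on the same strand that still awaits experimental evidence of its type. The hairpins of miR-34b (chr9:51103562-51103645) and miR-34c (chr9:51103034-51103110) lie on the minus strand, 451 bases apart, both within an intron of Btg4, a gene on the opposite strand.

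Libraries held 1229834 to 14249087 miRNA reads, so that 3 reads, taken as the detection floor, stood at 0.211 to 2.439 reads per 1000000 miRNA reads (RPM). In each library 445 to 510 names had any read at all, whether or not they reached that floor. Levels are shares of the Ago2-bound miRNA pool, and in such bulk samples fewer cells of a type and less RNA per cell cannot be told apart. Of the neuronal miRNAs (miR-124, miR-128 and miR-138 with their star arms, 8 names), only miR-128-2* stood at 0 throughout a group, in SST. The 8 names summed to 217074 to 311453 RPM in Neocortex and 261602 to 302589 RPM in Cerebellum. Among the tagged classes the sum was 331465 to 378989 RPM in Camk2a, PV and Purkinje, 266355 to 296483 RPM in Gad2 and 166926 to 171710 RPM in SST, below every Neocortex library. By limma, miR-128 of that list was 8.92-fold, 41.3-fold and 33.3-fold lower in Gad2, PV and SST than in Neocortex (adjusted p = 7.68e-11, 4.91e-14 and 2.28e-13). miR-124 was 1.52-fold higher in Gad2 and 1.96-fold in PV (adjusted p = 0.00366 and 9.75e-05), and was not called in SST (0.421). miR-138 was 1.77-fold higher in PV and 2.79-fold in SST (adjusted p = 0.0128 and 8.04e-05), and was not called in Gad2 (0.0604). The 3 names thus did not move together. Markers of some other cells stood lower in all tagged classes than in the tissues: 3 vascular names summed to 5810 to 8178 RPM in whole tissue and 295 to 993 RPM in the tagged classes, and 6 microglia and leukocyte names to 275 to 528 and 1.57 to 16.4 RPM. The 5 oligodendrocyte names summed to 667 to 1219 RPM in the neocortical classes against 2155 to 3401 RPM in Neocortex, but to 2743 to 3249 RPM in Purkinje against 3364 to 3565 RPM in Cerebellum, where 1 of the 5 was called lower. The 5 blood names summed to 43.1 to 347 RPM in the neocortical classes against 1539 to 3770 RPM in Neocortex. In Purkinje they summed to 1279 to 1585 RPM against 2306 to 2847 RPM in Cerebellum. miR-486 held 1426 RPM of the Purkinje mean of 1475 RPM, while miR-451 had means of 40.2 RPM in Purkinje and 2108 RPM in Cerebellum. No list here defines a neuron class, so the names of the classes rest on the labels.

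The family was unevenly spread over the brain, and its 2 loci had different patterns. miR-34a was highest in PV and high in Purkinje and Gad2. miR-34b-5p and miR-34c were highest in SST and lowest in Purkinje. All 6 members differed between the 7 groups by limma's F test over all groups (adjusted p of at most 1.03e-05 each), as did 87.2% of the 522 names tested. The F statistic of miR-34c ranked 38 and that of miR-34a 42 among the 522.

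**Figure D1:**
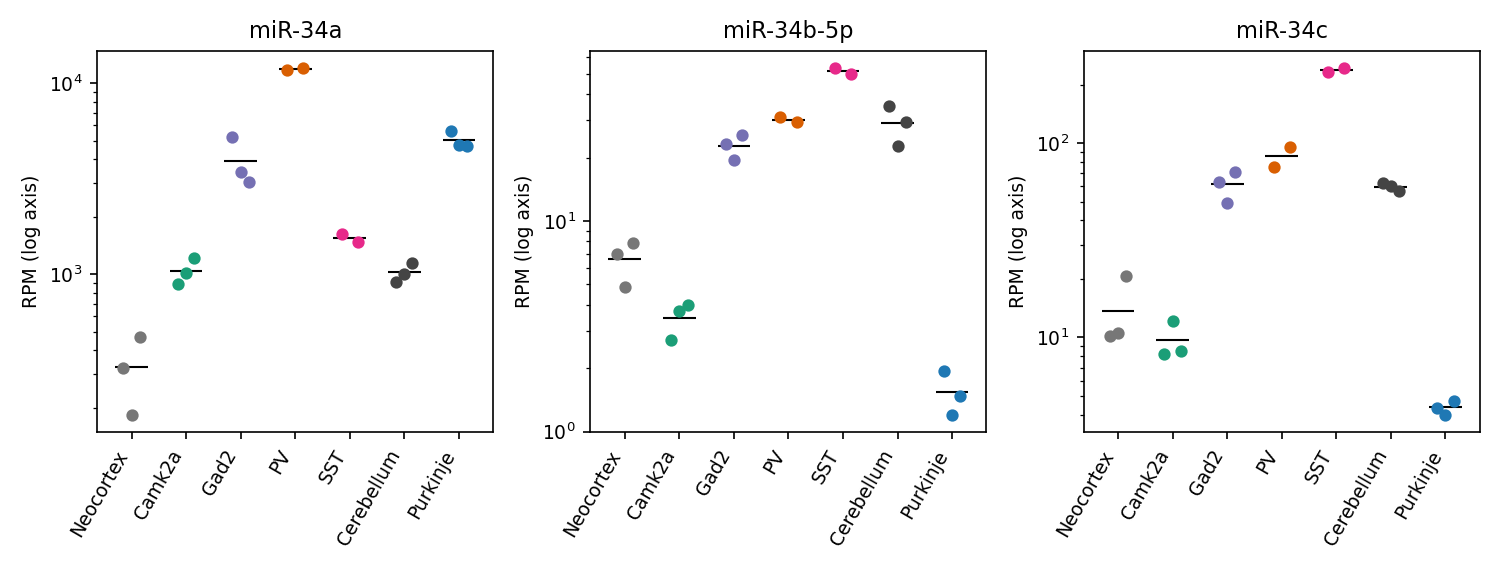
Levels of miR-34a, miR-34b-5p and miR-34c (RPM, log axis) in each of the 19 libraries, by group, with a bar at the group mean. PV stands highest for miR-34a (mean 11877 RPM) and SST for miR-34c (238 RPM), while Purkinje is high in miR-34a (5017 RPM) and lowest in miR-34c (4.37 RPM).

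miR-34a was the most abundant member in all 7 groups. Its levels were 323, 183 and 466 RPM in Neocortex (mean 324 ± 142, SD, n = 3), 887, 1008 and 1208 RPM in Camk2a (1034 ± 162, n = 3) and 5238, 3423 and 3044 RPM in Gad2 (3902 ± 1173, n = 3). The interneuron classes gave 11772 and 11981 RPM in PV (11877 ± 147, n = 2) and 1620 and 1475 RPM in SST (1547 ± 103, n = 2). All libraries of the 4 neocortical classes therefore lay above all of Neocortex, and PV and SST lay on either side of Gad2. Whole cerebellum gave 907, 1001 and 1148 RPM (1019 ± 121, n = 3) and Purkinje 5625, 4766 and 4660 RPM (5017 ± 530, n = 3). In PV it ranked 12 to 16 among the miRNAs of a library, in Purkinje 26 to 28, and in Neocortex only 98 to 137. The order of the means was PV, Purkinje, Gad2, SST, Camk2a, Cerebellum and Neocortex. Among neighbours in that order, Purkinje overlapped Gad2 and Camk2a overlapped Cerebellum. With each library divided by its TMM factor, which scales libraries on the bulk of miRNAs, SST (1156 RPM) and Camk2a (1176 RPM) changed places.

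Each neuron class of the neocortex exceeded whole neocortex in miR-34a by limma with Benjamini-Hochberg adjustment, and these comparisons share the 3 Neocortex libraries. The difference was 3.39-fold in Camk2a (log2 1.76, SE 0.25, adjusted p = 1.09e-05), 12.5-fold in Gad2 (log2 3.65, SE 0.25, adjusted p = 3.64e-10), 39.3-fold in PV (log2 5.30, SE 0.28, adjusted p = 2.61e-12) and 5.11-fold in SST (log2 2.35, SE 0.28, adjusted p = 8.44e-07). Counted over the family, 3 of 6 members were called in Camk2a against Neocortex, where 44.8% of all names tested were called. In Gad2 against Neocortex 4 of 6 were called (45% of all), in PV 4 of 6 (48.7% of all) and in SST 3 of 6 (52.5% of all). Read against that background, these counts single out nothing about the family as a whole. The median log2 change of all names was between -0.25 and 0.13 in these 4 comparisons.

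Between classes, miR-34a was 3.70-fold higher in Gad2 than in Camk2a (log2 1.89, SE 0.25, adjusted p = 4.36e-06), a comparison in which 4 of 6 members and 38.1% of all names were called. Among interneurons it was 3.13-fold higher in PV than in Gad2 (log2 1.65, SE 0.28, adjusted p = 0.000114) and 2.45-fold lower in SST than in Gad2 (log2 -1.30, SE 0.28, adjusted p = 0.0019). PV against SST gave a 7.68-fold difference (log2 2.94, SE 0.31, adjusted p = 1.55e-07). These contrasts called 2, 4 and 3 of the 6 members, against 21.3%, 27.6% and 29.1% of all names.

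In the cerebellum, Purkinje libraries held 4.93-fold more miR-34a than whole cerebellum (log2 2.3, SE 0.25, adjusted p = 6.73e-08), and whole cerebellum 3.35-fold more than whole neocortex (log2 1.75, SE 0.25, adjusted p = 5.62e-06). Purkinje cells and the neocortical Gad2 class, both GABAergic, did not differ past the threshold in miR-34a: the log2 difference was 0.40 (SE 0.25, adjusted p = 0.184). DESeq2 on the recovered reads did call that difference, at log2 0.61 (adjusted p = 0.0394). In these 3 comparisons 5, 4 and 5 members were called, against 68.6%, 55.6% and 55% of all names.

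miR-34c, one of the pair of clustered miRNAs, followed another order. Its levels were 10.2, 10.5 and 20.6 RPM in Neocortex (13.8 ± 5.89, n = 3), 8.25, 12.2 and 8.51 RPM in Camk2a (9.64 ± 2.19, n = 3) and 63.3, 49.4 and 71.3 RPM in Gad2 (61.3 ± 11.1, n = 3). They were 75.4 and 95.6 RPM in PV (85.5 ± 14.2, n = 2) and 232 and 243 RPM in SST (238 ± 7.54, n = 2). Both SST libraries thus lay above every other library. Cerebellum gave 62.6, 59.8 and 56.7 RPM (59.7 ± 2.95, n = 3), and Purkinje 4.36, 4 and 4.74 RPM (4.37 ± 0.366, n = 3), from 9, 10 and 16 reads. All Purkinje libraries lay below every other library. The order of the means was SST, PV, Gad2, Cerebellum, Neocortex, Camk2a and Purkinje, and among neighbours Gad2 overlapped Cerebellum and Neocortex overlapped Camk2a.

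miR-34b-5p was the least abundant main arm in every group and kept nearly the order of miR-34c. Its levels were 6.98, 4.88 and 7.87 RPM in Neocortex (6.58 ± 1.54, n = 3), 2.72, 3.74 and 3.97 RPM in Camk2a (3.48 ± 0.669, n = 3) and 23.2, 19.4 and 25.5 RPM in Gad2 (22.7 ± 3.07, n = 3). PV gave 31.2 and 29.4 RPM (30.3 ± 1.29, n = 2) and SST 53.2 and 49.6 RPM (51.4 ± 2.5, n = 2). SST was again above every other library, and Camk2a below every library of Neocortex. Cerebellum gave 35, 22.8 and 29.5 RPM (29.1 ± 6.1, n = 3), and Purkinje 1.94, 1.2 and 1.48 RPM (1.54 ± 0.373, n = 3), from 4, 3 and 5 reads. In the order of the means, Cerebellum stood between PV and Gad2 and overlapped both.

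Against whole neocortex, miR-34c was 4.63-fold higher in Gad2 (log2 2.21, SE 0.27, adjusted p = 1.40e-06), 6.48-fold in PV (log2 2.69, SE 0.30, adjusted p = 2.80e-07) and 18.1-fold in SST (log2 4.18, SE 0.30, adjusted p = 1.16e-09). miR-34b-5p was higher by 3.46-fold, 4.64-fold and 7.86-fold in the same classes (adjusted p = 6.33e-05, 1.32e-05 and 4.53e-07). Camk2a did not share this rise. There miR-34c gave a log2 difference of -0.45 from Neocortex (SE 0.27, adjusted p = 0.19), and miR-34b-5p was 1.85-fold lower (log2 -0.89, SE 0.30, adjusted p = 0.0211). That last call was lost without Neocortex replicate 1 (adjusted p = 0.0616), Neocortex replicate 3 (0.0854) or Camk2a replicate 1 (0.0997), with TMM scaling (log2 -0.59, adjusted p = 0.126) and with edgeR's quasi-likelihood test on reads (log2 -0.63, adjusted p = 0.0715). Set directly against Camk2a, Gad2 held 6.33-fold more miR-34c (log2 2.66, SE 0.27, adjusted p = 1.55e-07) and 6.42-fold more miR-34b-5p (log2 2.68, SE 0.30, adjusted p = 5.47e-07).

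**Figure D2:**
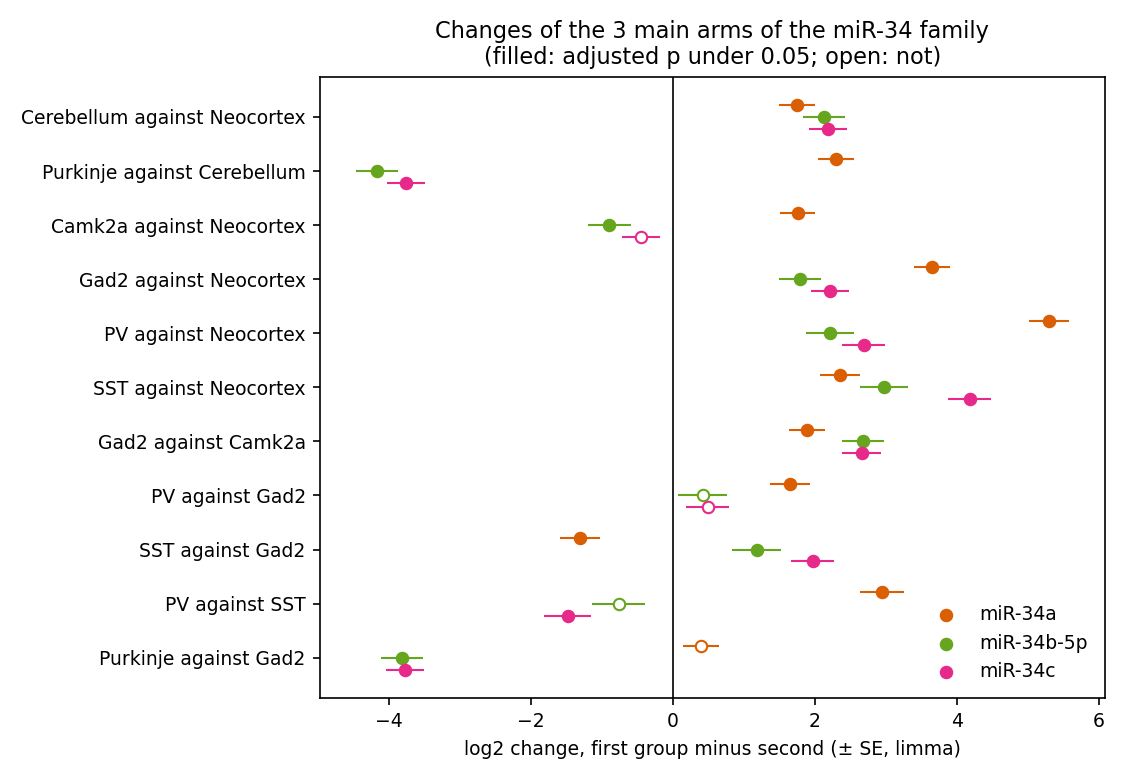
Log2 change of the 3 main arms in the 11 comparisons fitted by limma, with bars of 1 standard error and filled points where the adjusted p was under 0.05. miR-34a and the miR-34b/c pair lie on opposite sides of 0 in Purkinje against Cerebellum, Purkinje against Gad2, Camk2a against Neocortex, SST against Gad2 and PV against SST.

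SST was the class that stood apart within the interneurons. miR-34c was 3.91-fold higher in SST than in Gad2 (log2 1.97, SE 0.30, adjusted p = 0.000114) and 2.80-fold lower in PV than in SST (log2 -1.48, SE 0.33, adjusted p = 0.00185), whereas PV and Gad2 gave a log2 difference of 0.49 (SE 0.30, adjusted p = 0.286). The median of all names in PV against SST was itself at -0.42 and moved to 0.00 with TMM scaling, under which miR-34c stayed called at log2 -1.01 (adjusted p = 0.0351). In SST against Gad2 the median went from 0.42 to 0.00, and miR-34c remained called at log2 1.51 (adjusted p = 0.00134). For miR-34b-5p, SST exceeded Gad2 by 2.27-fold (log2 1.18, SE 0.34, adjusted p = 0.0129), a call lost with TMM (log2 0.73, adjusted p = 0.175), with edgeR (log2 0.72, adjusted p = 0.0826), without SST replicate 1 (adjusted p = 0.0795) and without SST replicate 2 (0.0522). PV against SST gave -0.76 for miR-34b-5p (SE 0.37, adjusted p = 0.142) and was called only when these groups alone were fitted (adjusted p = 0.0385). With 2 libraries in each class, the spread in these tests is shared with the other groups.

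The cerebellum showed the widest separation of the miR-34 genes. miR-34b-5p and miR-34c were 4.39-fold and 4.55-fold higher in whole cerebellum than in whole neocortex (log2 2.13 and 2.19, SE 0.30 and 0.27, adjusted p = 5.12e-06 and 9.40e-07), the direction in which miR-34a also changed. Purkinje libraries were then 17.8-fold lower than whole cerebellum in miR-34b-5p (log2 -4.16, SE 0.30, adjusted p = 1.90e-10) and 13.4-fold lower in miR-34c (log2 -3.75, SE 0.27, adjusted p = 1.90e-10), while miR-34a was higher. From the pooled reads alone, 171 against 12 for miR-34b-5p and 376 against 35 for miR-34c, the ratios were 17.9 (95% interval 9.98 to 35.3) and 13.5 (9.53 to 19.7), which cover counting error only. Against the neocortical Gad2 class, Purkinje was 14.1-fold lower in miR-34b-5p (log2 -3.81, SE 0.30, adjusted p = 1.03e-09) and 13.6-fold lower in miR-34c (log2 -3.77, SE 0.27, adjusted p = 2.91e-10). Both miRNAs of the chr9 cluster were thus low in these GABAergic cells, where miR-34a was not called different from Gad2. The change in Purkinje against its tissue was also tested against that in each neocortical class against Neocortex. The 2 changes differed past the threshold for 4 of 6 members with Camk2a (47.3% of all names), 6 of 6 with Gad2 (45.8% of all), 6 of 6 with PV (45.8% of all) and 4 of 6 with SST (44.6% of all).

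The make-up of the family in each group followed from these orders. The 3 main arms together took 1.2% ± 0.0141 of miRNA reads in PV (SD, n = 2), 0.502% ± 0.0528 in Purkinje (n = 3), 0.398% ± 0.117 in Gad2 (n = 3) and 0.0345% ± 0.0148 in Neocortex (n = 3). miR-34b-5p and miR-34c made up a mean over libraries of 15.8% of that sum in SST, 8.11% in Cerebellum and 6.18% in Neocortex. Their part was smaller in Gad2 (2.23%), Camk2a (1.26%) and PV (0.964%), and in Purkinje it was 0.118%. Read as a ratio of levels, miR-34a exceeded miR-34c by a mean of 6.52 in SST and of 1155 in Purkinje. Within the cluster the ratio of miR-34c to miR-34b-5p varied less, with group means of 2.08 to 2.93 in 6 groups and 4.63 (4.37 and 4.89 in the libraries) in SST. These ratios were not tested.

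**Figure D3:**
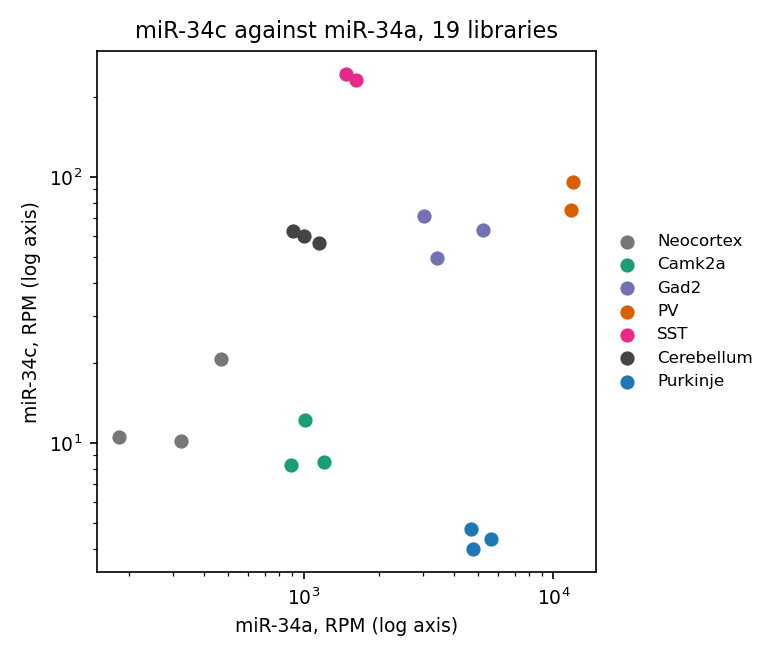
miR-34c against miR-34a (both in RPM, log axes), with 1 point for each of the 19 libraries, coloured by group. The SST libraries lie at the top with 232 and 243 RPM of miR-34c, and the Purkinje libraries at the lower right with 4 to 4.74 RPM of miR-34c beside 4660 to 5625 RPM of miR-34a.

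Across the 19 libraries, log2 levels of miR-34b-5p and miR-34c went together with a Pearson coefficient of 0.98, and over the 7 group means also 0.98. miR-34a and miR-34c gave 0.16 and 0.18, and miR-34a and miR-34b-5p 0.09 and 0.13. The points share libraries and depth and fall into groups, so these coefficients are descriptions. The miRNAs of the chr9 cluster thus resembled each other more than either resembled miR-34a. miR-34a and miR-34b-5p have the seed in common, and the seed of miR-34c was not read here.

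The minor arms were near the floor in many libraries. miR-34a*, from the other side of the miR-34a hairpin, had 27.7 and 31.7 RPM in PV (29.7 ± 2.82, n = 2), against 5.96, 7.55 and 8.59 RPM in Gad2 (7.37 ± 1.32, n = 3) and 1.4, 3.17 and 2.59 RPM in Neocortex (2.39 ± 0.906, n = 3). Its means were 3.03 RPM in Camk2a, 3.89 RPM in Cerebellum and 2.62 RPM in Purkinje, and SST had 3 reads in 1 library and 1 in the other. PV was therefore above every other library for this arm too. By limma it was 12.6-fold higher in PV than in Neocortex (log2 3.66, SE 0.55, adjusted p = 1.29e-05) and 26.7-fold higher than in SST (adjusted p = 2.88e-06). In pooled reads it was 27.8 times as abundant in PV as in SST (661 against 4 reads, 95% interval of counting error 10.8 to 102). PV exceeded Gad2 by 4.03-fold (adjusted p = 0.0104), a call lost without PV replicate 1 (adjusted p = 0.0637) or PV replicate 2 (0.0932). Gad2 exceeded Neocortex by 3.13-fold (adjusted p = 0.00993, but 0.0554 without Neocortex replicate 1). SST was lower than Gad2 (adjusted p = 0.00129, but 0.0516 without SST replicate 2), with a ratio of pooled reads from Gad2 to SST of 6.55 (201 against 4 reads, 2.52 to 24.3).

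In Purkinje miR-34a* was 2.75-fold lower than in Gad2 (log2 -1.46, SE 0.50, adjusted p = 0.0172), a call lost without Gad2 replicate 3 (adjusted p = 0.054) or Purkinje replicate 2 (0.0596), while miR-34a was not called in that comparison. Against whole cerebellum it gave -0.49 (adjusted p = 0.391), where miR-34a was 4.93-fold higher. Its reads there were few, with 6, 5 and 10 in the Purkinje libraries. As a share of the reads of its hairpin, averaged over the libraries of a group, miR-34a* was 0.894% in Neocortex, 0.394% in Cerebellum, 0.298% in Camk2a, 0.249% in PV, 0.205% in Gad2, 0.0863% in SST and 0.0524% in Purkinje. The Neocortex libraries were spread, at 0.43%, 1.7% and 0.553%, and the order of these shares was not tested.

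miR-34b-3p had 13, 6.98 and 2.78 RPM in Cerebellum (7.59 ± 5.14, n = 3) and 0 in all 3 Purkinje libraries. Against the floor of 3 reads in the shallowest Purkinje library, 1.454 RPM, it was at least 5.22-fold lower there than in Cerebellum (adjusted p = 7.07e-09) and at least 1.37-fold lower than in Gad2 (adjusted p = 1.10e-06). It was 4.64-fold higher in Cerebellum than in Neocortex (log2 2.21, SE 0.55, adjusted p = 0.00207). Its other group means lay between 1.13 RPM in Camk2a and 2.97 RPM in SST, and no other comparison called it. Floors cover counting error only.

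miR-34c* likewise had no read in Purkinje, and its mean in the other groups was 0.306 RPM in Camk2a to 2.38 RPM in SST. Purkinje was at least 1.38-fold lower than Cerebellum (adjusted p = 4.30e-07), and it was also called lower than Gad2 (adjusted p = 1.12e-05), where no fold is given because the Gad2 mean was itself below that floor. Between Gad2 and Camk2a, 29 and 10 pooled reads gave a ratio of 3.41 (95% interval of counting error 1.62 to 7.85). By limma, miR-34c* was 3.09-fold higher in Gad2 (adjusted p = 0.0216). That call was lost without any of Camk2a replicates 1 and 2 and Gad2 replicates 2 and 3 (adjusted p = 0.0848, 0.0743, 0.0586 and 0.0596). It was also lost with DESeq2 (0.0987). Between Neocortex and Camk2a, 19 and 10 pooled reads gave a ratio of 3.76 (1.66 to 9.05). By limma, miR-34c* was 2.57-fold lower in Camk2a (adjusted p = 0.0453). That call was lost without any of Neocortex replicates 2 and 3 and Camk2a replicates 1 and 2 (adjusted p of 0.0702 to 0.166 over these and the other settings that lost it). No other comparison called miR-34c*. As means over libraries, miR-34b-3p took 5.39% of its hairpin's reads in SST to 24.3% in Camk2a, and miR-34c* 0.998% in SST to 6.26% in Neocortex. In Purkinje they took 0 of 12 and 0 of 35 pooled reads. Counts this small leave wide intervals for the share in each Purkinje library.

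**Figure D4:**
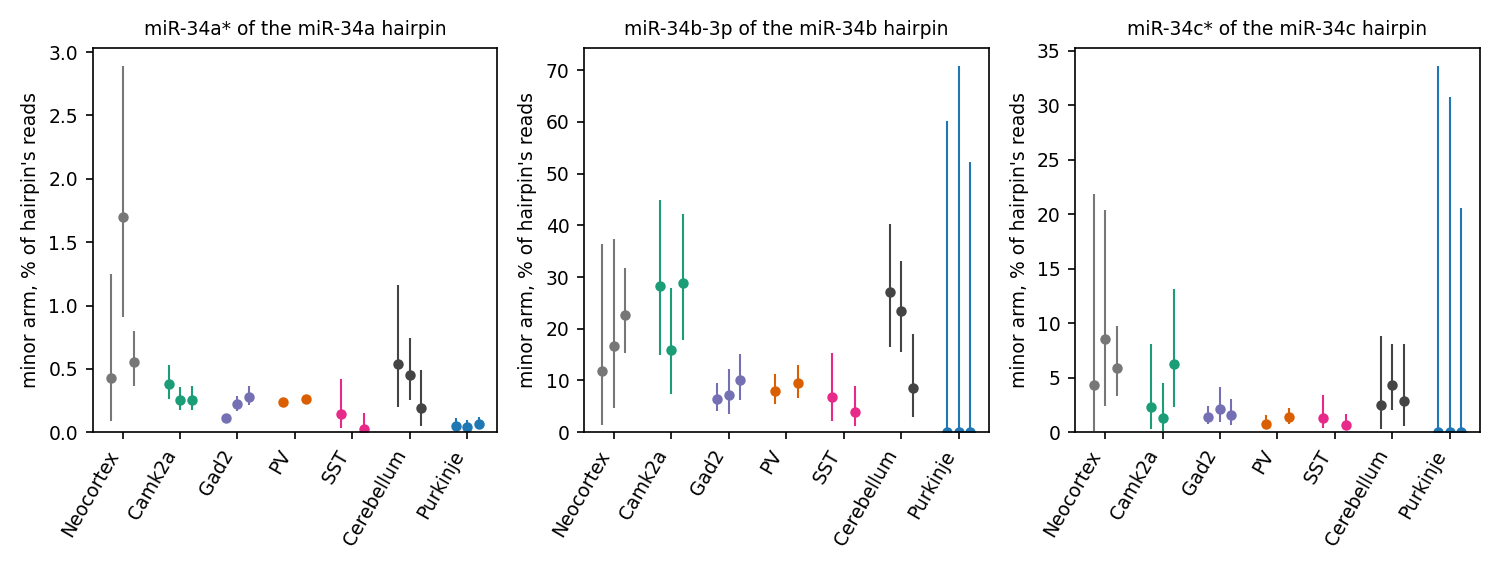
Share of each hairpin's reads taken by the minor arm (percent), for the miR-34a, miR-34b and miR-34c hairpins, with 1 point per library by group and a vertical line for its exact (Clopper-Pearson) 95% interval of counting error. The miR-34b hairpin has the highest minor-arm share outside Purkinje, with group means of 5.39% to 24.3%, and both clustered hairpins stand at 0 in Purkinje.

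miR-34b and miR-34c are known from ciliated epithelia, so markers of those were read beside them. miR-449a, miR-449b and miR-449c, known relatives of the family in ciliated cells, were looked for by name. None was among the 528 names, so their levels could not be read. For choroid plexus the list held miR-204 and miR-204*, which come from an intron of Trpm3, and neither stood at 0 in any group. Their summed level was 1364 to 1814 RPM in Cerebellum, 133 and 133 RPM in SST, 80 to 92.8 RPM in Neocortex, 56.4 to 84.7 RPM in Camk2a, 18.9 to 27.6 RPM in Gad2, 7.26 and 8.38 RPM in PV and 4.74 to 12.6 RPM in Purkinje. miR-204 thus moved in the direction of miR-34b-5p and miR-34c in some comparisons. It was 25.1-fold higher in Cerebellum than in Neocortex (adjusted p = 3.83e-11), 187-fold lower in Purkinje than in Cerebellum (adjusted p = 9.95e-15), 6.49-fold higher in SST than in Gad2 (adjusted p = 5.80e-06) and 16.8-fold lower in PV than in SST (adjusted p = 1.30e-08). In Gad2 and PV it moved the opposite way from miR-34b-5p and miR-34c, being 2.94-fold and 7.61-fold lower than in Neocortex (adjusted p = 0.000174 and 2.03e-07). In SST, miR-204 was 2.2-fold higher than in Neocortex (adjusted p = 0.00534) and miR-204* 5.38-fold lower (adjusted p = 0.000225). The part of choroid plexus or ependymal RNA in the levels of miR-34b and miR-34c was not tested.

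**Figure D5:**
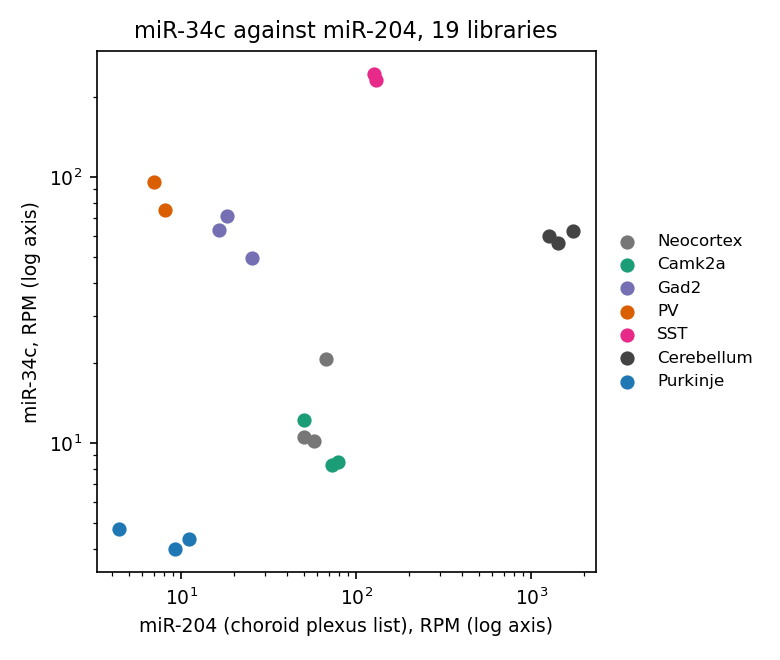
miR-34c against miR-204 (both in RPM, log axes), with 1 point for each of the 19 libraries, coloured by group. Cerebellum and Gad2 hold like levels of miR-34c (means of 59.7 and 61.3 RPM) at very different levels of miR-204 (1472 and 20 RPM).

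Summed vascular, blood, oligodendrocyte, and microglia and leukocyte markers were lower in every library of Gad2, PV and SST than in any of Neocortex, the opposite direction to miR-34b-5p and miR-34c. The vascular sum, for example, was 295 to 766 RPM in these classes against 7841 to 8178 RPM in Neocortex. The blood list was split. Its Neocortex sum was mostly miR-451, an erythroid miRNA with 2431 RPM there and 10 to 40.2 RPM in the tagged classes. miR-486, also of that list, moved with miR-34b-5p and miR-34c in some comparisons. Against Neocortex (21.2 RPM) it was 4.73-fold higher in Gad2, 10.4-fold in PV, 13.2-fold in SST and 16.5-fold in Cerebellum (adjusted p = 4.29e-07, 2.73e-09, 1.52e-09 and 3.83e-11). In Camk2a miR-486 was 1.67-fold higher than in Neocortex (adjusted p = 0.0211), where miR-34b-5p was called lower and miR-34c was not called. In Purkinje it was 4.04-fold higher than in Cerebellum (adjusted p = 4.63e-07), where miR-34b-5p and miR-34c were lower. The part of these cells in the family's levels was not tested.

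The family belongs to a wider set of miRNAs linked to p53, which also holds miR-15a, miR-16, miR-107, miR-143, miR-192 and miR-194. Of its names, 18 were in the table and 17 were tested, 11 of them outside the family. Among those 11, Purkinje against Cerebellum called 2 higher and 6 lower, where 31.2% and 37.4% of all names were called higher and lower, with a median log2 change of -2.64 (-0.19 over all). Purkinje against Gad2 called 0 higher and 5 lower (20.5% and 34.5% of all), with a median of -0.22 (-0.31 over all). Cerebellum against Neocortex called 4 higher and 3 lower (19.5% and 36% of all), with a median of 0.88 (-0.4 over all). Over the 11 comparisons, the largest median shift of the list was the one towards lower levels in Purkinje than in whole cerebellum. Of the neocortical classes against Neocortex, Camk2a called 1 higher and 2 lower (16.9% and 28% of all; median -0.02), Gad2 2 and 1 (20.7% and 24.3%; -0.30), PV 1 and 2 (19.3% and 29.3%; -0.08) and SST 3 and 2 (31% and 21.5%; 0.43). Between classes, Gad2 against Camk2a called 1 higher and 1 lower (21.5% and 16.7%; median -0.17), PV against Gad2 1 and 1 (6.7% and 14.6%; 0.12), SST against Gad2 2 and 0 (21.6% and 5.94%; 0.42) and PV against SST 1 and 2 (4.02% and 25.1%; -0.08). These splits move with the scaling: with TMM the share of all called names that were higher went from 37.6% to 55.3% in Camk2a against Neocortex, from 13.8% to 42.2% in PV against SST, from 78.5% to 38.7% in SST against Gad2 and from 56.3% to 44.5% in Gad2 against Camk2a. With DESeq2 it went from 35.2% to 46.8% in Cerebellum against Neocortex, from 37.3% to 50.7% in Purkinje against Gad2 and from 31.5% to 46% in PV against Gad2. Among the 11 names of the list, TMM gave 3 higher and 2 lower in Camk2a against Neocortex and 1 and 1 in SST against Gad2. It gave 3 and 1 in Gad2, 2 and 1 in PV and 2 and 1 in SST against Neocortex. In Gad2 against Camk2a it gave 1 and 2, and in PV against SST 1 and 1. The counts of both Purkinje comparisons, Cerebellum against Neocortex and PV against Gad2 stayed as they were. The list thus held calls in both directions in most comparisons.

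Of the 3 most abundant non-family names of that list, miR-107 shared some of the changes of miR-34a. miR-16, which restrains cell-cycle genes, had means of 13075 ± 655 RPM in Cerebellum (SD, n = 3), 10994 ± 916 RPM in SST (n = 2) and 1076 ± 393 RPM in Purkinje (n = 3), against 3701 ± 1027 RPM in PV (n = 2). miR-107, from an intron of Pank1, ran from 2299 RPM in Cerebellum to 6004 RPM in Gad2. Like miR-34a it was higher in Gad2 than in Neocortex (1.52-fold, adjusted p = 0.00316) and Camk2a (1.81-fold, adjusted p = 0.000183) and in Purkinje than in Cerebellum (1.61-fold, adjusted p = 0.000586). Unlike miR-34a it was 1.71-fold lower in Cerebellum than in Neocortex (adjusted p = 0.000271), and PV against Neocortex did not call it (adjusted p = 0.774). miR-143, a smooth-muscle miRNA that also counts among the vascular markers above, had 4369 RPM in Neocortex, 1759 RPM in Cerebellum and 18.1 to 94.5 RPM in the tagged classes.

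Of 316 names outside the family with a mean of at least 10 RPM, those with the pattern most like miR-34a over the 7 group means were miR-30c (Pearson coefficient 0.88), miR-3072 (0.85), miR-544-3p (0.83), miR-107* (0.80), which also counts in the p53-linked list, and miR-325 (0.78). miR-30c, a member of the miR-30 seed family, had 3190 RPM in Purkinje and 2798 RPM in PV, against 795 RPM in Neocortex. miR-325 shared the PV peak, with 481 RPM there and 95.6 to 209 RPM in the other groups. For miR-34c they were miR-668 (0.91), miR-140* (0.87), miR-136 (0.86), miR-30c-1* (0.86) and miR-342-5p (0.85). miR-668 was highest in SST at 162 RPM and lowest in Purkinje at 25.4 RPM, the same ends as miR-34c. Over the 19 libraries in place of the means, 3 of the 5 names stayed among the 5 nearest to miR-34a and 1 of the 5 among those nearest to miR-34c. These coefficients rest on 7 points that share libraries and depth, and are descriptions.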

How the data were processed

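Small RNA of 19 to 24 nt bound to Ago2 was sequenced on an Illumina Genome Analyzer II in 19 libraries. Bowtie and the genome build mm9 are named in the submitters' processing notes, with no version of Bowtie given in the sources used here. The deposited signal was each library's count per miRNA scaled by the authors to a common total. Per the file headers it is per 1000000 reads, but columns sum to 10000000, and a division by 10 turned them into RPM. Every value in all 19 libraries was a whole number of reads times a constant (within 0.0051 deposited units), which gave back the reads and a depth of 1229834 to 14249087.

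Libraries were grouped by title. Replicates are numbered, but separate animals are not stated, so p-values measure only the spread between these libraries. Because the values were normalized, limma 3.58.1 with a trend (R 4.3.3) was fitted to log2(deposited value + 1) in 1 fit of 7 group means. Names with a value of at least 1 in at least 2 libraries were kept, which left 522 of 528. The Benjamini-Hochberg adjustment ran within each of 11 comparisons, with calls at an adjusted p under 0.05. Folds come from the fitted log2 change on that scale, which understates changes of low names. The steps were tested on simulated data. Alternatives were a pseudocount of 10, no filter, TMM scaling, edgeR 4.0.16 and DESeq2 1.42.0 on the recovered reads, fits of the 2 groups alone, a replicate block, and leaving out each library. TMM-scaled mean levels and the tests of a difference between 2 contrasts were added after the data were seen. The members and lists were chosen with earlier results of these data known. Every member was named, along with the 5 names most like miR-34a and the 5 most like miR-34c, and up to 3 names of highest level from each list. Read-ratio intervals are exact at 95%. Ratios within the family are given as values, with no test run. Coordinates and sequences are of GRCm38.p6, since the table holds none, and were not compared with mm9.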

Additional observations from a re-analysis of the deposited data

Results flagged for a closer look

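Each tagged class was compared with the whole tissue it came from, and the change in Purkinje against Cerebellum was tested against the change in each neocortical class against Neocortex, by limma in the same fit with Benjamini-Hochberg adjustment over 522 names. A difference between these changes passed the test for all 3 main arms with Gad2 and PV, and for miR-34b-5p and miR-34c with Camk2a and SST.

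For miR-34c the change in Purkinje lay below that in Camk2a by a log2 difference of -3.29 (adjusted p = 4.67e-07), Gad2 by -5.96 (1.56e-10), PV by -6.44 (6.57e-11) and SST by -7.92 (2.35e-12). For miR-34b-5p the differences were -3.26 with Camk2a (2.08e-06), -5.95 with Gad2 (6.80e-10), -6.37 with PV (3.99e-10) and -7.13 with SST (7.43e-11). The clustered miRNAs were thus lower in Purkinje than in its tissue, and higher in Gad2, PV and SST than in theirs. The minor arm miR-34a* also differed, by -2.14 with Gad2 (adjusted p = 0.017) and -4.15 with PV (9.99e-05), from few reads in Purkinje. The minor arms miR-34b-3p and miR-34c* passed the test with all 4 classes, but their size is not given, since they had 0 reads in Purkinje. For miR-34a, which was higher in every class than in its tissue, the rise in Purkinje was smaller than in Gad2 by -1.35 (adjusted p = 0.00348) and than in PV by -2.99 (1.12e-06). The difference did not pass the test with Camk2a (log2 0.54, adjusted p = 0.231) or SST (-0.05, adjusted p = 0.93). Differences of this kind were called for 47.3% of all names with Camk2a, 45.8% with Gad2, 45.8% with PV and 44.6% with SST. Tissue, strain and pooling change with the contrast and cannot be told apart from cell class. Choroid plexus miR-204 was 187-fold lower in Purkinje than in its tissue, and its part in these differences was not tested.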

How the results depend on the processing

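No main arm changed direction under any alternative run: of 411 values of their log2 changes, 400 kept their direction and side of the threshold. For miR-34b-5p, Camk2a against Neocortex was no longer called with TMM (-0.59) or edgeR (-0.63) and ran from -1.09 to -0.73 with each library left out, and SST against Gad2 was no longer called with TMM (0.73) or edgeR (0.72) and ran from 1.08 to 1.27. PV against SST for miR-34b-5p was called when only those groups were fitted (-0.76), and Purkinje against Gad2 for miR-34a with DESeq2 (0.61). With each library left out, the number of names called ran from 73 to 105 in PV against Gad2 (111 with all), from 83 to 121 in SST against Gad2 (144 with all, 93 with TMM) and from 94 to 130 in PV against SST (152 with all). Where PV or SST was left with 1 library, that library is assumed to vary like the other groups. Among minor arms, miR-34b-3p in Camk2a against Neocortex went from -0.25 to 0.03 with TMM and from -0.52 to 0.15 with a library left out. The other minor-arm changes that turned when a library was left out were uncalled with all libraries: miR-34c* in Gad2 against Neocortex (-0.10 to 0.55), PV against Neocortex (-0.52 to 0.58) and PV against Gad2 (-0.79 to 0.31), miR-34a* in SST against Neocortex (-2.22 to 0.05) and miR-34b-3p in PV against SST (-0.43 to 0.48). Of 411 values of minor-arm changes, 373 kept their direction and side of the threshold, 19 lost a call, 9 gained one and 10 changed sign. The cause was not tested. TMM moved the median of all names by over 0.1 in several comparisons, from -0.42 to 0.00 in PV against SST and from -0.25 to 0.03 in Camk2a against Neocortex. Of 52 same-numbered pairs of libraries in different groups, 7 had a correlation of deviations over 0.1, and 9 of 19 libraries lay closest to their own number. With so few libraries in a group, these values cannot settle whether same-numbered libraries were prepared together. The main fit did not pair them. With the replicate block the names called went from 290 to 283 in Cerebellum against Neocortex, from 358 to 361 in Purkinje against Cerebellum and from 235 to 246 in Gad2 against Neocortex. Depth limits the minor arms and the Purkinje values of miR-34b-5p and miR-34c, which rest on 3 to 16 reads a library.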
